A study of Mus musculus with 24 samples.

Results

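The genes described here are 8 genes known for dividing the retina into a dorsal and a ventral part: Tbx2, Tbx3, Tbx5, Bmp4 and Aldh1a1 on the dorsal side, and Vax1, Vax2 and Aldh1a3 on the ventral side. They were chosen by symbol, and all 8 were found among 21883 protein-coding genes of the mouse. The data are CUT&RUN peak lists from the retina of wild-type mice aged 2 days (P2) or 17 days (P17). CUT&RUN releases and sequences the DNA around a protein that an antibody has marked in nuclei. Strain, sex and treatment are not given in the sources used here. Antibodies recognised the transcription factors SOX8 or SOX9, the promoter mark H3K4me3 or the mark of active promoters and enhancers H3K27ac. At each age, 4 libraries (2 antibodies, from GeneTex and Proteintech) were made for SOX8 and 2 for every other target, besides 2 with nonspecific IgG, which were not analysed here. The libraries of a target and age are represented by 1 list, so 8 lists were used.

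In the embryonic eye, BMP4 from the dorsal retina induces the T-box factors TBX5, TBX2 and TBX3, while the homeodomain factors VAX1 and VAX2 act ventrally and in the optic stalk. Downstream, the retinoic acid synthesising enzyme ALDH1A1 is made dorsally and ALDH1A3 ventrally, and EphB and ephrin-B proteins in opposing gradients guide ganglion cell axons. SOX8 and SOX9 belong to the SoxE family, and SOX9 is known in retinal progenitors and Müller glia. A list of whole retina averages dorsal and ventral cells and all cell types.

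A peak here is a stretch of the genome that the authors' lists report as enriched, given by chromosome, start and end. The lists carry no height or p-value and no replicate, so width in base pairs is the one quantity per peak, no error between libraries could be computed, and no statistical test was made. Peaks were counted at a gene when they overlapped it or its 5 kb flanks by 1 bp or more, with 50 kb as a second distance. A missing peak means that none was listed there, and at unknown depth it does not show that the protein was absent. Lists held 2653 (P2) and 2400 (P17) SOX8 peaks, 5476 and 2855 SOX9 peaks, 9134 and 9629 H3K4me3 peaks, and 287845 and 29909 H3K27ac peaks. The tissue label was checked by H3K4me3 at marker genes, where 49.3% of protein-coding genes had a peak at P2 and 50.9% at P17. Of 6 rod photoreceptor genes 4 had a peak at P2 and 6 at P17, and of 6 Müller glia genes 5 and 2. Of 5 progenitor genes 5 and 3 had one, and of 4 cone and of 5 pigment epithelium genes 1 at each age. None of 2 erythroid and 2 lens genes had one at either age. Müller glia genes at P17 and cone genes at both ages thus lay below the share of all genes.

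Upstream promoter sequences are shown to compare a start under a SOX9 peak with starts under none. A RefSeq table (GRCm38.p6) gave promoters for 3 of the 8 genes, and the 250 bases before the start are shown 5′ to 3′ for 3 starts that differ in their peaks. Vax1 (chr19:59170398-59170647, minus strand) lay under P2 SOX9, H3K4me3 and H3K27ac peaks, Bmp4 (chr14:46390670-46390919, minus strand) under no peak of any list, and the lower start of Aldh1a1 (chr19:20492333-20492582, plus strand) under none either. Capitals mark words searched on both strands: the SOX words ACAATG and ACAAAG, the shorter SOX word ACAAT, which is contained in the first and was added after the letters had been seen, and the T-box word GGTGTGA.
Vax1: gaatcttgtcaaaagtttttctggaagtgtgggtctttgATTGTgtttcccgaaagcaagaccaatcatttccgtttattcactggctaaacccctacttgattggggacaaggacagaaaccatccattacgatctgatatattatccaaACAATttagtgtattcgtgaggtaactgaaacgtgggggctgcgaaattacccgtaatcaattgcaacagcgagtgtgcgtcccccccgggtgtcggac
Bmp4: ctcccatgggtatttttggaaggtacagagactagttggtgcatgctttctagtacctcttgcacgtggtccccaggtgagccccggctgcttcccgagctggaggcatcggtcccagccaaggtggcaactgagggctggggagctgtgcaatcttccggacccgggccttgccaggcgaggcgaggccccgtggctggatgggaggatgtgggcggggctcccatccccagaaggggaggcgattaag
Aldh1a1: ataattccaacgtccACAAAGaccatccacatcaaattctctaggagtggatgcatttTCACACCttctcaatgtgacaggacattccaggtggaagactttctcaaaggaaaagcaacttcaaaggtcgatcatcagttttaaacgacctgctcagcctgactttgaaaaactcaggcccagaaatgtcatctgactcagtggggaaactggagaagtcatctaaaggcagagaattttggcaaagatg

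Vax1, the start covered by a SOX9 peak, held neither longer SOX word, and it held the shorter word at 2 places, 211 and 99 bases upstream of the start. Aldh1a1, without a peak, held ACAAAG 235 bases upstream and the reverse complement of the T-box word 192 bases upstream. Bmp4 held none of the words. A SOX word stood in 25.2% of all 32851 promoter windows of this length and in 15.4% of the 5550 under a P2 SOX9 peak, the shorter word in 27.7% and 14.5%, and the T-box word in 3.33% and 2.14%. Windows under a P2 H3K4me3 peak gave similar shares, 15.3% for a SOX word, 15.6% for the shorter word and 2.34% for the T-box word. Windows under a P2 SOX9 peak were also richer in G and C, with a median of 64.4% against 52.4% for all windows, and so were those under P2 H3K4me3 (62.4%). The Vax1 window had 44.8% G and C with 11 CpG dinucleotides, the Bmp4 window 63.2% with 11, and the Aldh1a1 window 42.8% with 3. The second Aldh1a1 start, at 20601968 on chromosome 19, had 46.4% G and C with 1 CpG and lay under a P2 H3K27ac peak, with none of the words in its window. These matches describe letters and are not binding sites.

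SOX9 peaks stood at 4 of the 8 genes at P2, namely Tbx2, Tbx3, Vax1 and Vax2, and SOX8 peaks at 3 of them, Tbx2, Tbx3 and Vax2. For comparison, 27.7% of all protein-coding genes had a P2 peak of SOX9 and 15.1% one of SOX8. At P17 a SOX9 peak remained listed at Tbx2 and Vax2, with a background of 15.7%, and a SOX8 peak at Tbx2, with a background of 13.0%. Among these 8 genes, SOX peaks within 5 kb stood at transcription factor genes, of both sides, but not at every such gene. No share over all transcription factor genes was counted, and pathway genes of other kinds had SOX peaks too, as given below. The transcription factor gene Tbx5, the ligand Bmp4 and the enzymes Aldh1a1 and Aldh1a3 had none at either age. Counted by side, P2 SOX9 peaks stood at 2 of 5 dorsal and 2 of 3 ventral genes, and P2 SOX8 peaks at 2 dorsal genes and 1 ventral gene.

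**Figure D1:**
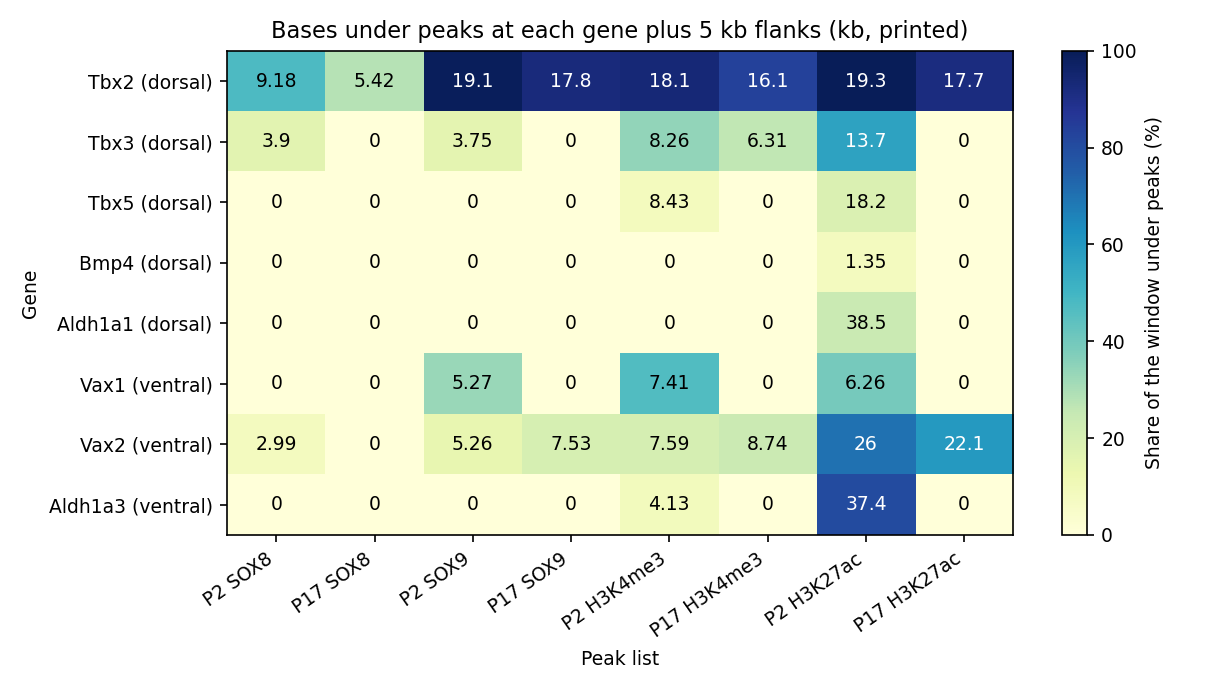
Kilobases under peaks within each gene plus 5 kb flanks, printed in each cell, for the 8 genes (vertical axis) and 8 peak lists (horizontal axis). Colour gives the share of the window under peaks in percent. Tbx2 has peaks in all 8 lists, whereas Bmp4 and Aldh1a1 have peaks in the P2 H3K27ac list alone.

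H3K4me3 lay at 6 of the 8 genes at P2, all except Bmp4 and Aldh1a1, where 49.3% of protein-coding genes had it. At P17 it lay at 3, Tbx2, Tbx3 and Vax2, with a background of 50.9%. H3K27ac peaks were found at all 8 genes at P2, against 81.8% of protein-coding genes, and at Tbx2 and Vax2 at P17, against 57.0%. The P2 H3K27ac list held many more peaks than the P17 list, so its counts are the least comparable between ages. Within that list cut to its 29909 widest peaks, the P17 number, 7 genes still had a peak and Bmp4 did not.

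Read against age, 3 of 6 genes with P2 H3K4me3 had no P17 peak, Tbx5, Vax1 and Aldh1a3, where this held for 6.91% of all genes with a P2 peak. For H3K27ac it was 6 of 8 against 30.7%. The SOX counts were nearer to the background: 2 of 3 genes with a P2 SOX8 peak had none at P17, against 46.4%, and 2 of 4 with a P2 SOX9 peak, against 58.9%. No member had a P17 peak without a P2 peak of the same target, where 5.82% of genes without a P2 SOX8 peak, 6.01% of those without a P2 SOX9 peak and 9.86% of those without P2 H3K4me3 had one. In whole retina, fewer cells of a type and less signal per cell cannot be told apart. Markers moved between the ages too: SOX9 peaks stood at 4 of 6 Müller glia genes at P2 and 1 at P17, and H3K4me3 at fewer Müller glia and progenitor genes and at more rod genes at P17, as counted above. Their part in the members' counts was not tested. Counted by peak and not by gene, 9.69% of all 9134 P2 H3K4me3 peaks overlapped no P17 H3K4me3 peak. The same held for 35 (11.7%) of 300 P2 peaks at least as wide as the one at Vax1. It held for 254 (8.8%) of 2887 at least as wide as the narrower one at Aldh1a3. Whether width bears on the members' counts was not tested.

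Every SOX peak within 5 kb of a member overlapped an H3K4me3 peak of the same age, so the members were also read against genes that carry the mark. Among protein-coding genes with P2 H3K4me3, 53.3% also had SOX9 at P2 and 29.8% had SOX8, beside 4 and 3 of the 6 members with the mark. At P17 these shares were 27.4% for SOX9 and 23.1% for SOX8, beside 2 and 1 of 3 members. The background of the same age was chosen after the data had been seen.

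**Figure D2:**
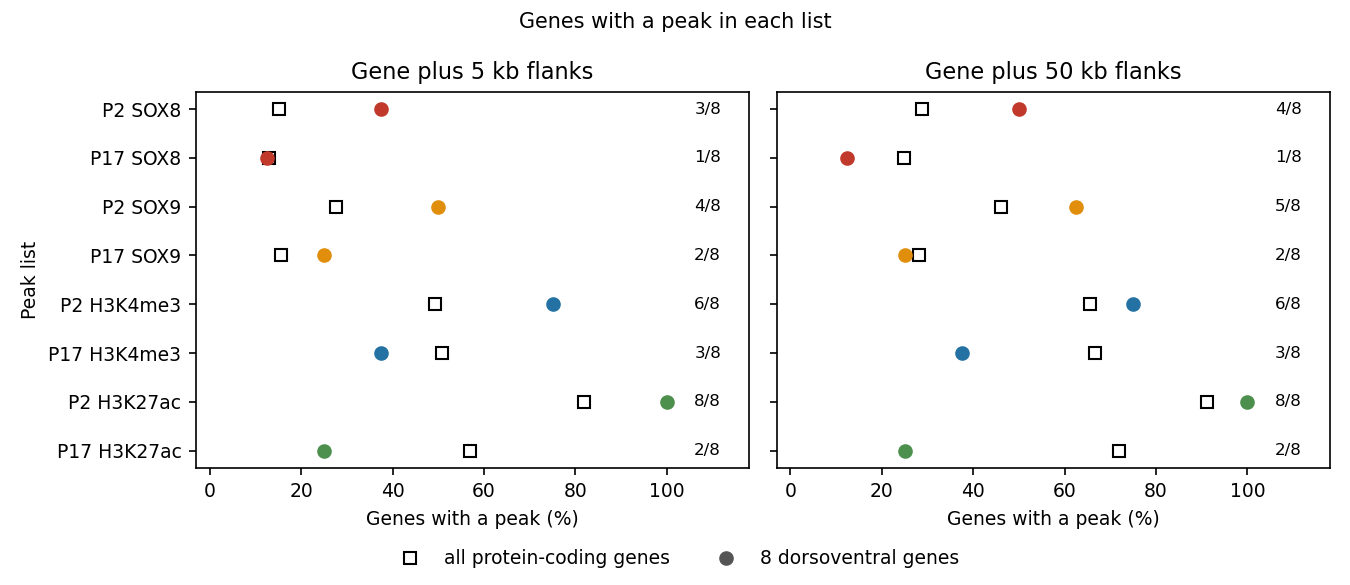
Percent of genes with a peak (horizontal axis) in each list (vertical axis), with 5 kb flanks on the left and 50 kb flanks on the right. Circles are the 8 dorsoventral genes, with their number beside them, and open squares all protein-coding genes. At P2 every circle lies to the right of its square, and at P17 both histone mark circles lie to the left.

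Tbx2, a transcriptional repressor of the dorsal retina, had the most bases under SOX8, SOX9 and H3K4me3 peaks of the 8 genes at both ages (chromosome 11, 85832615 to 85841948). Its P2 SOX9 peak ran from 85827797 to 85846915, a width of 19119 bp that spanned the whole gene and ranked 5 of 5476. The P17 SOX9 peak ran from 85827263 to 85845443, was 18181 bp wide and ranked 18 of 2855, and the peaks of both ages shared 17647 bp. In bases under the P2 SOX9 list within 5 kb, 0.0685% of protein-coding genes had at least as many as Tbx2.

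SOX8 covered less of the gene than SOX9. At P2 the SOX8 list had 2 peaks there, one of 5162 bp over the lower-coordinate end (85828406 to 85833567, rank 30 of 2653) and one of 4017 bp over the upper end (85841728 to 85845744, rank 84). The 8160 bp between them, most of the gene, lay wholly within the P2 SOX9 and H3K4me3 peaks. At P17 a single SOX8 peak of 5416 bp remained listed over the upper end (85839393 to 85844808, rank 153 of 2400), and it shared 3081 bp with the P2 peak there. The P2 peak over the lower end overlapped no P17 SOX8 peak, although the P17 SOX9 peak still covered that end.

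The histone marks were as broad. H3K4me3 covered 18070 bp at P2 (85828018 to 85846087, rank 7 of 9134) and 16122 bp at P17 (85828898 to 85845019, rank 20 of 9629). The H3K27ac peak spanning the gene was 26777 bp wide at P2 and 19587 bp at P17. SOX8, SOX9 and both marks at the lower end also overlapped the long noncoding RNA gene 2610027K06Rik, which ends just below Tbx2. At both ages the H3K27ac peak overlapped the upper end of the protein-coding gene Bcas3 as well. Signal at the lower end thus cannot be assigned to one gene. All 8 lists had a peak at 1383 protein-coding genes (6.32%). At most 1.68% of genes had as many bases under peaks as Tbx2 in each SOX and H3K4me3 list, while 21.7% did in the P2 and 11.0% in the P17 H3K27ac list. All 19334 bp of the Tbx2 window lay under P2 H3K27ac, so its count there could not be higher, while longer genes could hold more. At P17, 91.7% of the window lay under H3K27ac. By width, the H3K27ac peak spanning Tbx2 ranked 378 of 287845 at P2 and 1322 of 29909 at P17.

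**Figure D3:**
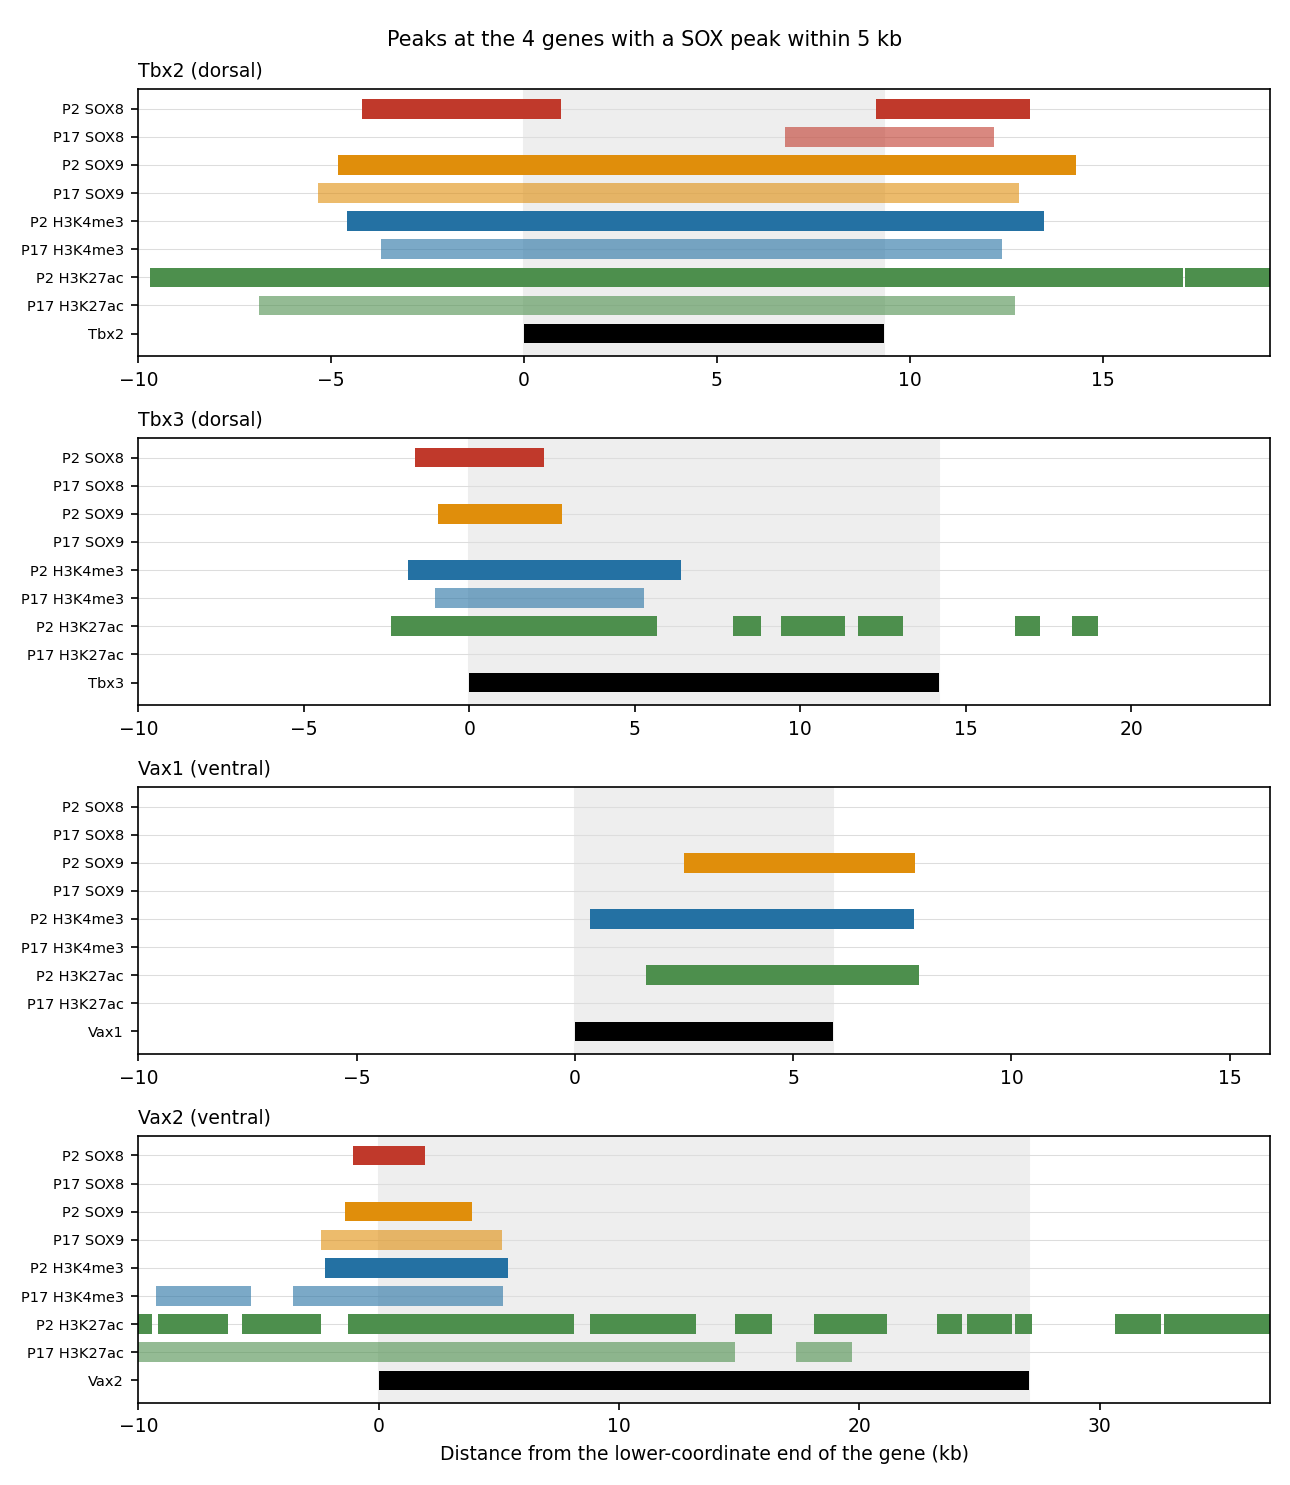
Peaks at Tbx2, Tbx3, Vax1 and Vax2, drawn to scale by distance in kb from the lower-coordinate end of the gene (black bar, grey shading), with 1 row for each of the 8 lists and pale bars for P17. SOX9 spans Tbx2 at both ages, while SOX8 covers its lower and upper ends at P2 and its upper end alone at P17. P17 rows are empty at Vax1.

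Tbx3, the second dorsal T-box repressor (chromosome 5, 119670534 to 119684724), had both SOX factors at P2 and neither at P17. The P2 SOX8 peak was 3903 bp wide (119668905 to 119672807, rank 106 of 2653) and the P2 SOX9 peak 3753 bp (119669575 to 119673327, rank 848 of 5476). Tbx3 was the member whose SOX8 peak was wider than its SOX9 peak. Both covered the lower-coordinate end of the gene, where the upper end of the long noncoding RNA gene Tbx3os1 also lies.

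H3K4me3 stayed listed at that end, with 8263 bp at P2 (119668684 to 119676946, rank 183 of 9134) and 6309 bp at P17 (119669498 to 119675806, rank 865 of 9629). H3K27ac had 6 peaks within 5 kb at P2, the widest of 8035 bp over the same end, and none at P17. The nearest P17 SOX8 peak lay 417 kb away and the nearest P17 SOX9 peak 437 kb away. This combination of 5 lists, H3K4me3 at both ages with SOX8, SOX9 and H3K27ac at P2 alone, was shared by 25 protein-coding genes (0.114%), Tbx3 included.

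Tbx5, the third dorsal T-box gene (chromosome 5, 119796514 to 119885220), begins 112 kb above the end of Tbx3 and had no SOX peak within 50 kb. Its nearest P2 SOX8 and SOX9 peaks were those at Tbx3, 124 kb and 123 kb away. It nevertheless had a P2 H3K4me3 peak of 8431 bp (119830501 to 119838931, rank 168 of 9134), which was wider than those at Tbx3, Vax1 and Vax2. That peak lay between the outer ends of the gene and overlapped one end of the noncoding gene Gm5563. No promoter of Tbx5 was given, so whether a transcription start lies under the peak could not be seen. Of the 168 P2 H3K4me3 peaks at least this wide, 150 (89.3%) overlapped a P2 SOX9 peak and 15 (8.93%), the Tbx5 peak among them, overlapped neither SOX8 nor SOX9. H3K27ac had 13 peaks at Tbx5 at P2, covering 18247 bp, the widest 4386 bp. At P17 no list had a peak within 50 kb.

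Vax1, a homeobox gene of the optic stalk and ventral retina (chromosome 19, 59164480 to 59170397, minus strand), had SOX9 without SOX8. The P2 SOX9 peak covered 5274 bp (59166990 to 59172263, rank 215 of 5476), took in the transcription start and the promoter window printed above, and reached the noncoding gene 4930442E04Rik. The nearest P2 SOX8 peak lay 174 kb away, at Pdzd8. P2 H3K4me3 covered 7410 bp (59164834 to 59172243, rank 300 of 9134), and a P2 H3K27ac peak of 6258 bp lay over the same end. None of the P17 lists had a peak within 50 kb, the nearest being H3K4me3 at 87.3 kb. The 3 P2 lists SOX9, H3K4me3 and H3K27ac, with no other, were the pattern of 75 protein-coding genes (0.343%).

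Vax2, the homeobox paralogue that acts in the ventral retina (chromosome 6, 83711239 to 83738313), had SOX9 at both ages and SOX8 at P2. The P2 SOX9 peak was 5265 bp wide (83709857 to 83715121, rank 218 of 5476) and lay wholly within the P17 SOX9 peak of 7531 bp (83708838 to 83716368, rank 490 of 2855). The P2 SOX8 peak was 2994 bp wide (83710158 to 83713151, rank 429 of 2653), all of it inside the P2 SOX9 peak. These peaks covered the lower-coordinate end, where the noncoding genes Vax2os and Gm32943 overlap Vax2. Because SOX9 peaks were wider in the P17 list as a whole, with a median of 5336 bp against 2668 bp at P2, the greater width at P17 went with a lower place by rank.

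H3K4me3 at that end of Vax2 covered 7589 bp at P2 (83709015 to 83716603, rank 263 of 9134) and 8736 bp at P17 (83707668 to 83716403, rank 246 of 9629). H3K27ac was broken into 9 peaks within 5 kb at P2, the widest 9396 bp, while at P17 a single peak of 30879 bp (83695180 to 83726058) covered the same end and most of Vax2os, with a second of 2306 bp inside the gene. H3K27ac peaks were wider in the P17 list as a whole, with a median of 3268 bp against 1166 bp, and these widest peaks stood at similar places, within the widest 1.41% of the P2 list and 2.11% of the P17 list. At P17, but not at P2, 2 more H3K4me3 peaks of 6558 bp and 3937 bp lay over Vax2os, 10561 bp and 5310 bp below the gene. Beyond 5 kb, P2 SOX9 peaks of 3634 bp, over Tex261 and Gm52907, and of 3349 bp, over no gene, lay 35610 bp and 48243 bp above Vax2. A P17 SOX9 peak of 5215 bp over Ankrd53 and Tex261 lay 28276 bp above it. H3K4me3 peaks of 3433 bp at P2 and 4457 bp at P17 lay over Tex261 and Gm52907 too. The P2 SOX9 peak over no gene did not overlap H3K4me3, and the same held for the P17 SOX9 peak.

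Aldh1a3, the ventral retinoic acid enzyme (chromosome 7, 66390892 to 66427477), had no SOX peak within 5 kb but 1 site with both factors farther out at P2. The SOX8 peak there was 1975 bp wide (66444368 to 66446342, rank 1736 of 2653) and the SOX9 peak 2732 bp (66444373 to 66447104, rank 2567 of 5476). The site lay 16.9 kb above the gene and overlapped no annotated gene. It had no H3K4me3 and was contained in a P2 H3K27ac peak of 11640 bp (66437017 to 66448656, rank 2620 of 287845). It was the member site where both SOX factors stood outside H3K4me3.

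Within Aldh1a3 itself, a P2 H3K27ac peak of 24644 bp (66396197 to 66420840) ranked 466 of 287845, and 80.4% of the gene plus 5 kb lay under that mark, which was true to at least this number of bases for 11.2% of genes. A P2 H3K4me3 peak of 4134 bp (66424822 to 66428955, rank 2884 of 9134) covered the upper end and part of Gm33515. All of these were without a counterpart at P17, when the nearest H3K27ac peak lay 89.4 kb away and the nearest H3K4me3 and SOX9 peaks 193 kb away.

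Aldh1a1, the dorsal retinoic acid enzyme (chromosome 19, 20492583 to 20643463, plus strand), had neither SOX nor H3K4me3 peaks within 50 kb at either age. Within this gene of 151 kb and its 5 kb flanks, H3K27ac at P2 was split into 26 peaks covering 38452 bp, and 22 of them overlapped the gene itself. The widest, of 7475 bp (20599086 to 20606560, rank 6433 of 287845), lay over the second transcription start at 20601968. The nearest P2 SOX9 peak (20343284 to 20346739) lay 146 kb below the gene, overlapped no gene and was contained in the nearest P17 H3K27ac peak (20338412 to 20346903). SOX8 peaks at both ages and the P17 SOX9 peak were nearest at Zfand5, 628 kb away. A related gene, Aldh1a7, begins within 50 kb of Aldh1a1, and how reads that fit both were treated is not given in the sources used here.

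Bmp4, the gene of a secreted signal of the dorsal retina (chromosome 14, 46383525 to 46390669, minus strand), was the member with the least under peaks. A single P2 H3K27ac peak of 1354 bp (46386840 to 46388193, rank 116980 of 287845) lay inside the gene, and 7 more lay within 50 kb. SOX8 and SOX9 at P2 and SOX9 at P17 were all nearest at Ddhd1, 724 kb away, and the nearest H3K4me3 peak lay 369 kb away at P2 and 396 kb at P17. For comparison, the median distance over protein-coding genes to the nearest peak was 62.6 kb for P2 SOX9 and 5.2 kb for P2 H3K4me3. Bmp4 and Aldh1a1 shared the pattern of P2 H3K27ac alone with 4209 protein-coding genes in all (19.2%), so it is not particular to them.

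**Figure D4:**
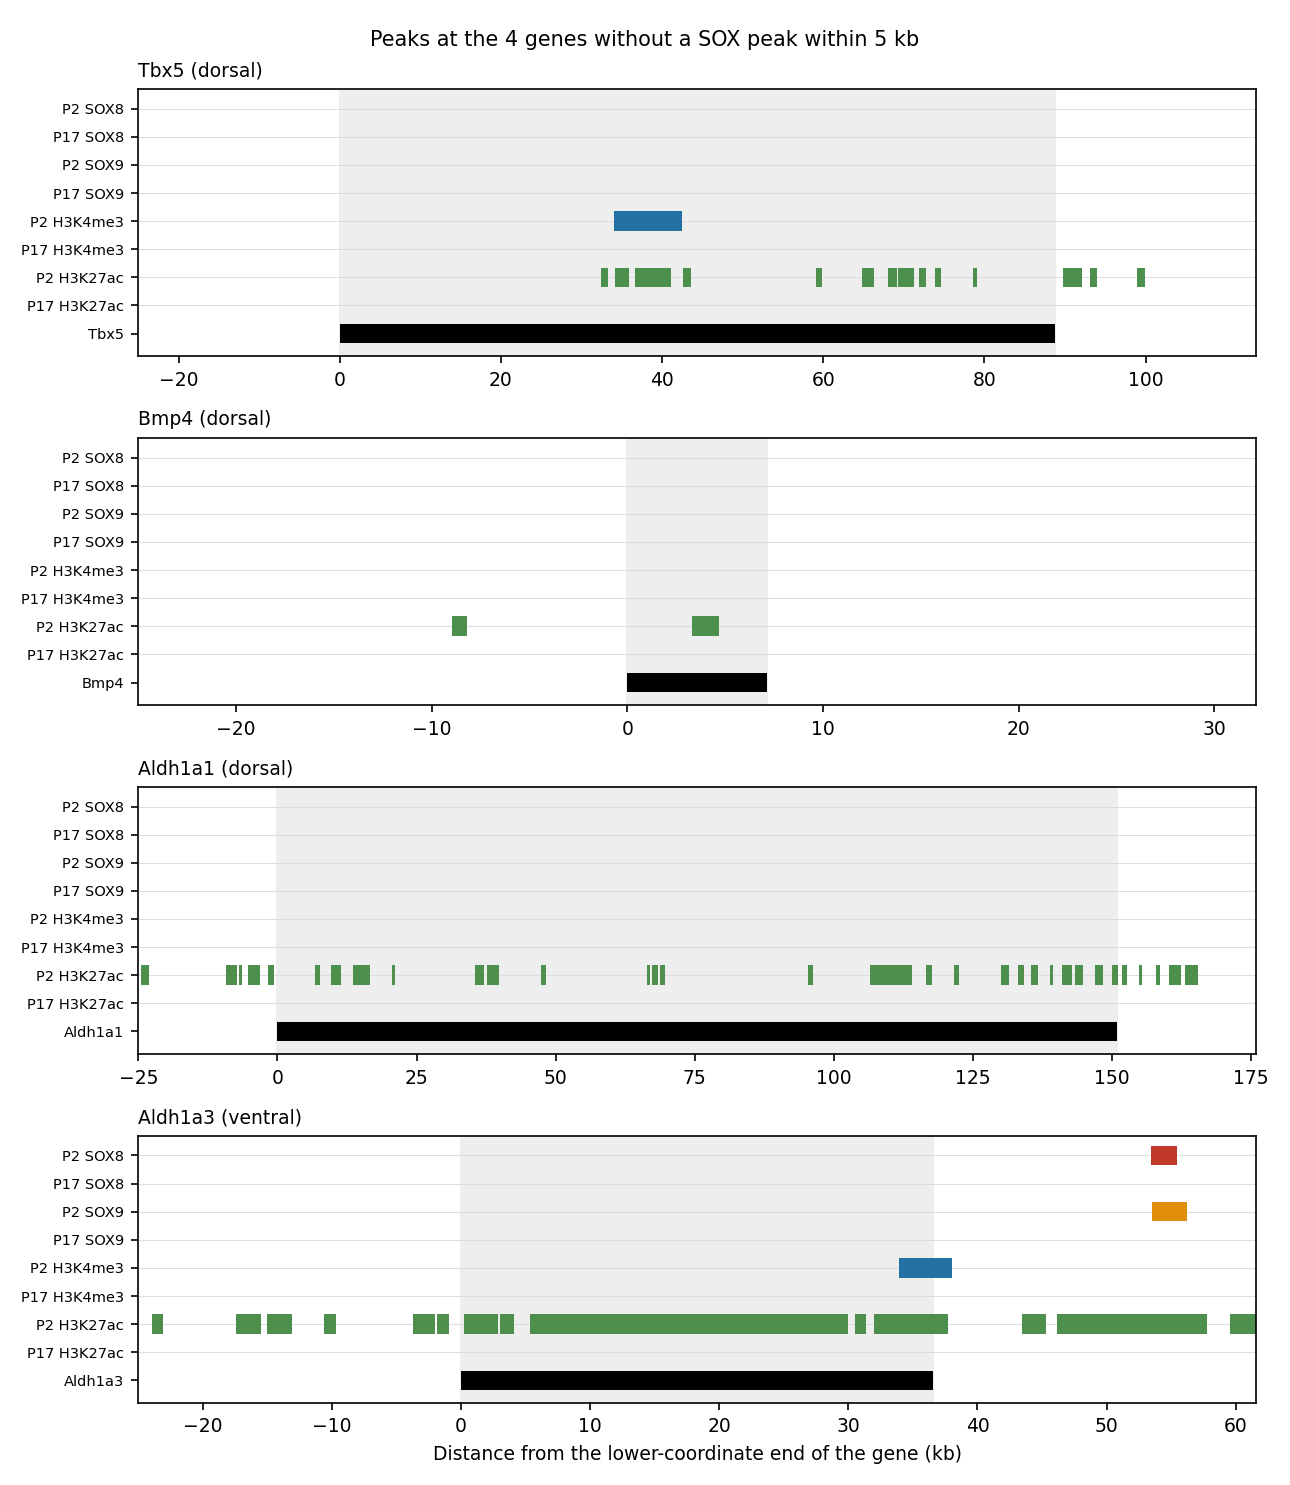
Peaks at Tbx5, Bmp4, Aldh1a1 and Aldh1a3, drawn to scale by distance in kb from the lower-coordinate end of the gene (black bar, grey shading), with 1 row for each of the 8 lists. P17 rows are empty throughout, and the pair of SOX bars above Aldh1a3 lies within a wide P2 H3K27ac bar.

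With 50 kb flanks the P2 counts rose by 1 gene for each SOX factor, Aldh1a3 in both cases, to 5 of 8 for SOX9 and 4 of 8 for SOX8, where 46.1% and 28.8% of all genes had a peak. The P17 counts were the same as with 5 kb, 2 for SOX9 against 28.2% of genes and 1 for SOX8 against 24.8%. For H3K4me3 they were 6 at P2 against 65.5% and 3 at P17 against 66.7%, and for H3K27ac 8 at P2 against 91.1% and 2 at P17 against 72.0%. Among these 8 genes, the wider flanks thus brought in 1 further gene at P2 and none at P17.

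Widths placed most of these peaks in the upper part of their lists. Of the 6 P2 H3K4me3 peaks within 5 kb, 5 were among the widest 3.28% of the list, the exception being Aldh1a3 at 31.6%. The 4 P2 SOX9 peaks were within the widest 15.5%, with Tbx3 the narrowest, and the 4 P2 SOX8 peaks within the widest 16.2%, with Vax2 the narrowest. Wide H3K4me3 peaks overlapped SOX peaks more often in general: 85.7% of P2 H3K4me3 peaks at least as wide as the one at Vax1 overlapped SOX9 and 63.0% SOX8, against 47.3% and 25.8% of all P2 H3K4me3 peaks. Vax1, with SOX9 and without SOX8, and Tbx5, with neither, were among these 300 peaks.

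**Figure D5:**
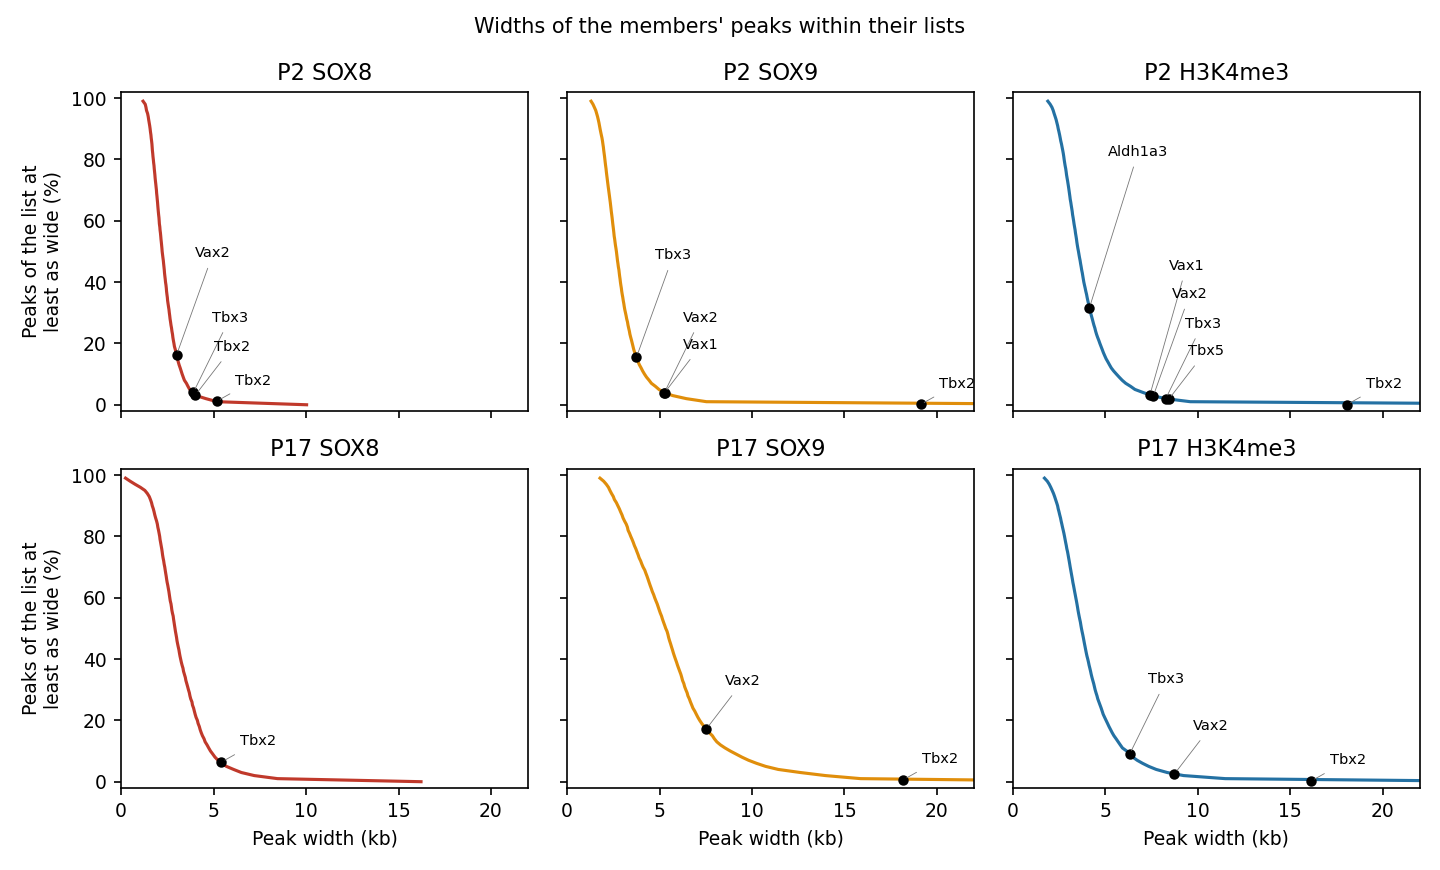
Peak width in kb (horizontal axis) against the percent of the list's peaks that are at least as wide (vertical axis), for the SOX8, SOX9 and H3K4me3 lists at P2 (top) and P17 (bottom). Curves are whole lists and points the peaks within 5 kb of the genes named. Tbx2 lies at the far right in SOX9 and H3K4me3 at both ages, and Aldh1a3 is the one H3K4me3 point high on the curve.

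The genes most like each SOX-bearing member were found by the distance between their bases under peaks (log10, plus 1 base) over the 8 lists, as a description of the lists. Tbx2 was closest to Midn (distance 0.276), Rhof (0.424) and Mast3 (0.474). For Tbx3 they were Zic2 (0.308), Maf (0.31) and Adamts1 (0.428), and Zic2 is a zinc finger factor of ventrotemporal ganglion cells. Vax1 was closest to Olig2 (0.14), Zic1 (0.178) and Sox9 (0.195), all transcription factor genes with P2 SOX9, H3K4me3 and H3K27ac and with no P2 SOX8 or P17 peak. Vax2 was closest to Brd3 (0.241), Coq8b (0.274) and Mnt (0.329).

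Beyond the 8 genes, 55 others of the pathway were counted within 5 kb, from lists of BMP signalling, retinoic acid, optic stalk and ventral factors, EphB and ephrin-B, and the opsin gradient. SOX9 peaks stood at 28 of them at P2 (50.9%, against 27.7% of all protein-coding genes) and at 12 at P17 (21.8%, against 15.7%). SOX8 peaks stood at 17 at P2 (30.9%, against 15.1%) and at 9 at P17 (16.4%, against 13.0%). H3K4me3 stood at 40 at P2 (72.7%, against 49.3%) and at 26 at P17 (47.3%, against 50.9%). H3K27ac stood at 52 at P2 (94.5%, against 81.8%) and at 34 at P17 (61.8%, against 57.0%). In all 4 cases the share lay nearer to that of all genes at P17 than at P2.

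Of 18 BMP and SMAD genes, 9 had a P2 SOX9 peak, where 27.7% of all genes had one, and 2 a P17 SOX9 peak, where 15.7% had one. The most bases under P2 SOX9 were at the inhibitory SMAD genes Smad6 (peaks of 4240 bp and 4020 bp) and Smad7 (4071 bp) and at the ligand Bmp7 (4324 bp). Smad6 and Smad7 also had P17 SOX9 peaks, of 6397 bp and 4947 bp, and Smad7 and Bmp7 had P17 SOX8 peaks, of 1861 bp and 3200 bp. Bmp7 thus had P2 SOX9 and P17 SOX8 peaks, while its relative Bmp4 had neither.

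Of 16 retinoic acid genes, 7 had P2 SOX9 and 5 P17 SOX9, against the same 27.7% and 15.7% of all genes. Rara, a retinoic acid receptor, had P2 SOX9 peaks of 11377 bp (rank 18 of 5476) and 8879 bp (rank 40), and P17 SOX9 peaks of 8672 bp and 8597 bp. Its partner receptor Rxra had 4 P17 SOX9 peaks, the widest 15321 bp (rank 40 of 2855), and Rxrb had P17 SOX8 peaks of 9695 bp (rank 13 of 2400) and 7120 bp. The retinol dehydrogenase gene Rdh10 had peaks of both factors at both ages, and Dhrs3, which returns retinal to retinol, had a P17 SOX9 peak of 6753 bp. The third retinaldehyde dehydrogenase, Aldh1a2, had no SOX peak, and neither did the retinoic acid degrading Cyp26a1, Cyp26b1 and Cyp26c1. These 4 fall outside the rule for named genes and were chosen after their values had been seen.

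Among 10 optic stalk and ventral genes, 7 had P2 SOX9 (27.7% of all genes) and 2 P17 SOX9 (15.7% of all genes). The nuclear receptor gene Nr2f1 had a P2 SOX9 peak of 9910 bp (rank 30 of 5476), Ptch1, the hedgehog receptor gene, had 3 P2 peaks, the widest 6455 bp, and Zic2 had 1 of 5514 bp. At P17, SOX9 peaks lay at Ptch1 (4274 bp) and Gli2 (8005 bp), a hedgehog effector, and a SOX8 peak of 4383 bp lay inside Pax2, an optic stalk gene without a P2 SOX peak. SOX9 peaks lay at 5 of 8 EphB and ephrin-B genes at P2 and at 3 at P17, with 27.7% and 15.7% of all genes as background. Ephb2, a receptor of ventral ganglion cell axons, had 4 P2 SOX9 peaks, the widest 5895 bp, and 3 at P17, the widest 6355 bp. Ephb1 had a P2 SOX9 peak of 4791 bp and a P17 peak of 5146 bp over the same end, and the P2 SOX9 peak at Efnb2 was 3120 bp wide. Ephb3 had a P17 SOX9 peak of 8376 bp inside the gene. The 3 opsin gradient genes had no SOX9 peak, where 27.7% of all genes had one at P2 and 15.7% at P17. Thrb, a thyroid hormone receptor gene of cones, had a P17 SOX8 peak of 2318 bp, where 13.0% of all genes had one.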

How the data were processed

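CUT&RUN was made by the submitters from 600000 nuclei of whole retina per reaction, per the labels' protocols. Bowtie2, SEACR (a peak caller for CUT&RUN) and the build GRCm38 are named in the submitters' processing notes, without versions. How libraries were merged into a list, the calling threshold and the use of IgG are not given in the sources used here. The deposited score field is 0 in every peak, so it carries no height. The other values are start and end positions in bp, printed here counted from 1. Depth is unknown, and unequal depth or calling thresholds would alter how many peaks a list holds and how wide they are.

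Gene positions came from a RefSeq table of GRCm38.p6 (21883 protein-coding genes on chromosomes 1 to 19, X and Y). Centres of 70.8% of P2 H3K4me3 peaks lay within 1 kb of a gene end, and of 8.22% after a move by 10 kb. Exons and introns are not in the table. Overlaps were counted with numpy 2.4.6 and pandas 2.3.3, and checked on 1000 simulated windows, all of which gave the right count. The members and gene lists were chosen with earlier results of these data known. Named were all 8 members, the 3 genes nearest to each SOX-bearing member, and pathway genes with a P17 SOX peak or among the 3 of their group with most bases under P2 SOX9.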

Additional observations from a re-analysis of the deposited data

How the results depend on the processing

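Of 81 alternatives, 80 left the number of members with a peak, or with a peak at P2 and not at P17, within 1.5 times the value reported. They were flanks of 0, 2, 10 and 50 kb, 50% of a peak or its centre inside the window, the wider 50% or the widest 2400 peaks of a list, lists cut to equal numbers, and, chosen after the data were seen, 5 kb around gene ends. The exception was P2 H3K27ac with its widest 2400 peaks, where 2 of 8 members, Tbx2 and Aldh1a3, had a peak. Some alternatives could not move a count: the P17 SOX8 list holds 2400 peaks in all, and wider flanks cannot lower the number of members with a peak. The counts are small, so a change by 1 gene could stay within the limit, as from 3 to 4 for P2 SOX8 with 50 kb flanks. With all genes of the table as background, noncoding ones included, 16.3% in place of 27.7% had a P2 SOX9 peak and 8.83% in place of 15.1% a P2 SOX8 peak. The number of P2 H3K27ac peaks per gene depended more on the list's length: cut to the P17 number, it went from 26 to 1 at Aldh1a1, 13 to 1 at Tbx5, 6 to 1 at Tbx3, 9 to 3 at Vax2, 7 to 2 at Aldh1a3 and 1 to 0 at Bmp4. Vax1, Vax2, Tbx2 and Tbx3 had a P2 SOX9 peak under every alternative run. Tbx5 had no H3K4me3 peak within 5 kb of its outer gene ends, where starts inside the gene are not seen, and Aldh1a3 none among the widest 2400. No paired analysis was possible because the lists name no replicate, and leaving out a library could not be done for the same reason. Depth is unknown, so missing peaks cannot be given a limit.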
